A study of Mus musculus with 6 samples.

Results

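The genes described here are 43 genes of DNA replication and mitosis, 22 that act in S phase and 21 that act in G2 and M phase. They were chosen by symbol, from a list of cell cycle genes, among the 35683 genes to which the transcripts of these tables were assigned, and all 43 were measured. Cells copy their DNA once per division. Licensing factors load the MCM helicase on replication origins, cyclin E with CDK2 starts replication, and the clamp PCNA and the enzymes of nucleotide synthesis sustain it. Cyclin B with CDK1 then drives entry into mitosis, the Polo and Aurora kinases build the spindle, and the anaphase-promoting complex separates the chromosomes. Adult hepatocytes are mostly quiescent, and transcripts of these genes are widely used as a readout of proliferation in liver tumors.

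RNA was sequenced from 6 macroscopic liver tumors of 2 CMRtdT mice, 3 tumors from mouse 1 and 3 from mouse 2. CMRtdT mice carry a conditional *Ctnnb1* allele whose exon 3 is removed by Cre, which leaves an oncogenic β-catenin, together with the MUP-uPA transgene, which injures hepatocytes, and a Cre-dependent tdTomato reporter. Both mice were fed a high-fat diet (HFD) from 6 weeks of age and received AAV8-TBG-Cre, a virus that expresses Cre from a hepatocyte promoter, by tail vein at 8 weeks. The tumors were excised 6.5 months later. All 6 tumors therefore belong to 1 condition, no liver without a tumor was analysed here, and the mouse is the only grouping. The tumors of a mouse share the animal, so a comparison of the mice is a comparison of 2 animals whose error is the spread between tumors within an animal.

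Each tumor gave between 19130532 and 27681766 estimated counts. Levels are given as TPM, the abundance of a transcript scaled for its length and for depth, with the same total in each tumor. Tumor 1 of mouse 1 stood apart from the other 5 across the transcriptome. The hepatocyte marker list summed to 1224 TPM in that tumor, against 21080 to 36500 TPM in the other 5, and all 9 of its genes were lowest there, with *Alb*, which encodes albumin, at 702 TPM against 8348 to 16603 TPM and *Apoa1* at 170.1 TPM against 4096 to 8542 TPM. The defining markers of the labelled tissue were thus far lower in this library than in the other 5. Whether the library matches its label was not tested, and every ratio of this tumor given below rests on it. In the same tumor the macrophage list summed to 113.5 TPM, against 234.8 to 880.6 TPM, with all 10 genes lowest there, and the endothelial list to 19.2 TPM, against 58.3 to 128.6 TPM. The T and NK cell list summed to 47.5 TPM, against 3.44 to 16.1 TPM, of which *Cd4* alone gave 46.3 TPM while *Cd3d*, *Cd3e*, *Cd5*, *Cd8a*, *Klrb1c* and *Ncr1* were listed at 0. The stellate and fibroblast list summed to 108.1 TPM, against 24.4 to 89.9 TPM, but only 3 of its 10 genes were highest there, *Acta2* at 50.1 TPM against 1.29 to 4.56 TPM, *Pdgfra* at 17.1 TPM against 0.08 to 1.23 TPM and *Pdgfrb* at 2.52 TPM against 0.32 to 1.63 TPM. The cholangiocyte list summed to 44.2 TPM, against 4.61 to 36.4 TPM. Of its 6 genes 4 were highest in tumor 1 of mouse 1, among them *Krt19* at 5.10 TPM against 0.24 to 1.83 TPM. *Sox9* was within the range of the other 5, at 0.715 TPM against 0.11 to 3.27 TPM. *Cftr* was at 0 there, as in tumors 1 and 3 of mouse 2. The B cell list summed to 3.03 TPM, against 2.52 to 7.61 TPM, with *Ms4a1* and *Pax5* at 0, and the erythroid list to 1579 TPM, against 1021 to 11080 TPM. These sums are on TPM, and the place of some lists changed under the scaling for RNA composition described below. The part of these differences in the results below was not tested. In bulk tumors, fewer cells of a type and less RNA per cell cannot be told apart.

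All 43 genes had their highest TPM in tumor 1 of mouse 1, so the values of that tumor are given beside the range of the other 5. This holds for 62.6% of all 12518 genes averaging 1 TPM or more over the 6 tumors, and for 58.1% of the 11324 genes averaging 1 TPM or more over the other 5 tumors alone, a filter that the level in tumor 1 of mouse 1 cannot affect. The direction alone is therefore shared with most genes. No test was made of the difference, since the tumor was chosen by its values.

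**Figure D1:**
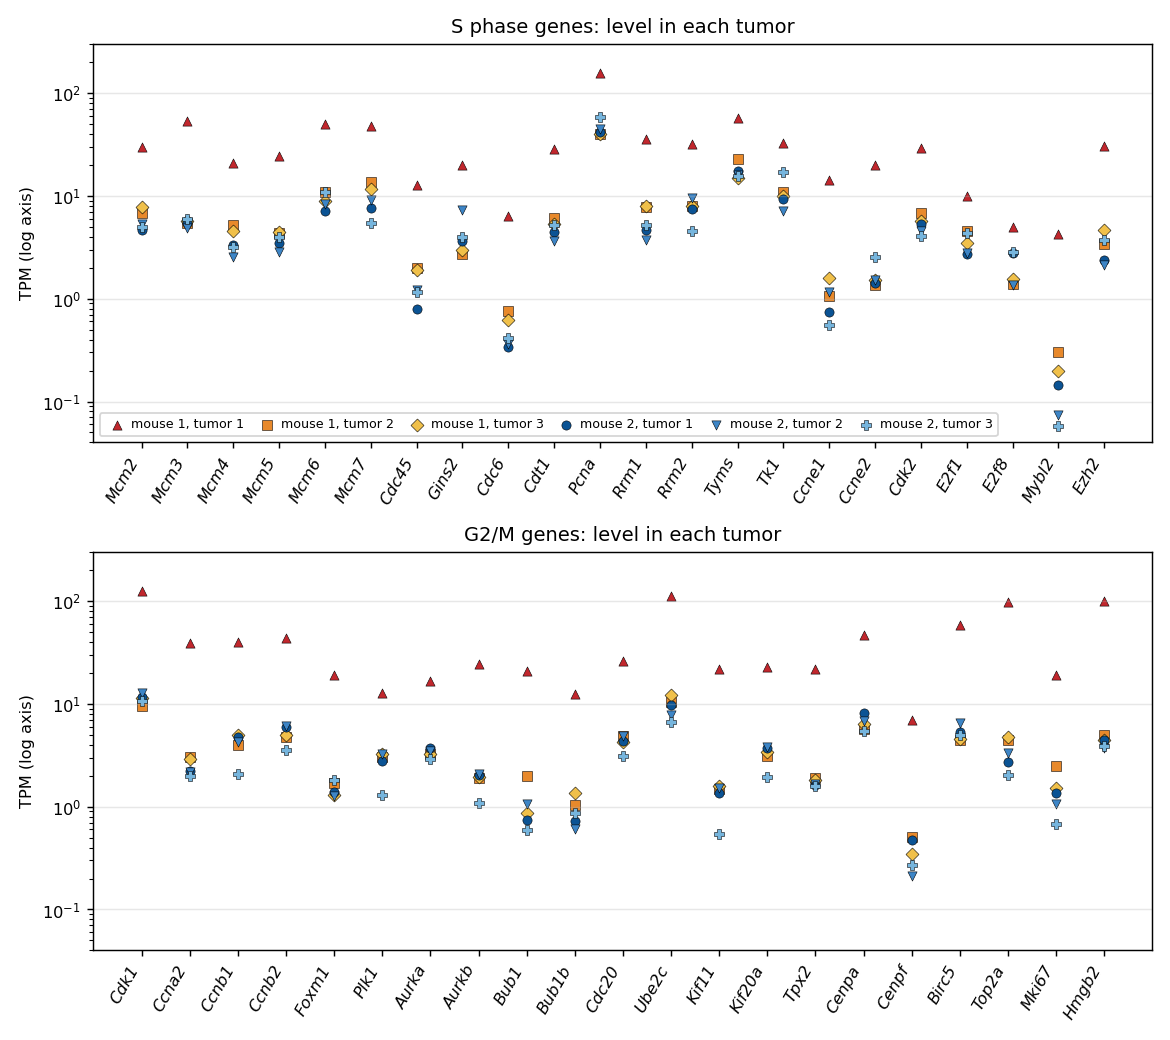
TPM (log axis) of each S phase gene (upper panel) and each G2/M gene (lower panel) in each of the 6 tumors, with 1 symbol per tumor. The red triangle, tumor 1 of mouse 1, lies above the other 5 symbols for all 22 S phase genes and all 21 G2/M genes.

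The ratio of tumor 1 of mouse 1 to the highest of the other 5 had a median of 4.41 over the 22 S phase genes (1.73 to 14.0) and of 9.19 over the 21 G2/M genes (3.93 to 20.5). At least a 2-fold ratio was reached by 20 S phase genes and 21 G2/M genes, at least 4-fold by 13 and 20, and at least 8-fold by 4 and 14. Among genes averaging 1 TPM or more over the other 5 tumors, which leaves out *Cdc6* and *Mybl2* of the S phase genes and *Bub1b* and *Cenpf* of the G2/M genes, the counts were 18 of 20 and 19 of 19 at 2-fold, 11 and 18 at 4-fold, and 2 and 12 at 8-fold. Of all genes under the same filter, 32.7% reached 2-fold, 11.4% reached 4-fold and 3.6% reached 8-fold. Both lists thus held larger shares than all genes at the 2-fold and 4-fold thresholds, and the G2/M genes held the larger share of the 2 lists at each threshold.

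Tumor 1 of mouse 1 also had a different RNA composition, and a scaling that takes composition into account (TMM) divided its TPM by 1.64, against 0.76 to 1.01 in the other 5 tumors. On TMM-scaled TPM its ratio to the highest other tumor had a median of 2.51 over the S phase genes (0.80 to 8.57) and of 5.41 over the G2/M genes (2.20 to 12.6). All 21 G2/M genes were still highest in that tumor, with at least a 2-fold ratio each, and 15 of them were at least 4-fold higher. Of the S phase genes 20 were highest there, 15 by at least 2-fold and 4 by at least 4-fold, while *E2f8* (0.80) and *Tk1* (0.90) were highest in tumor 3 of mouse 2. The scaling moved all genes as well. Among those averaging 1 TPM or more over the other 5 tumors, the median ratio was 1.27 on TPM and 0.74 on TMM-scaled TPM. After it 38.5% of them were highest in that tumor, 14.9% reached 2-fold and 4.49% reached 4-fold. The member counts on this scale were made without that filter, which *Cdc6*, *Mybl2*, *Bub1b* and *Cenpf* fail. Among genes averaging 1 TPM or more over all 6 tumors, 44.6% were highest there, 22.5% reached 2-fold and 11.4% reached 4-fold on this scale. The marker sums of that tumor moved too. The stellate and fibroblast sum (65.9 against 28.15 to 89.3) and the cholangiocyte sum (26.9 against 6.07 to 36.3) were then within the range of the other 5. The B cell sum (1.85 against 3.32 to 7.60) and the erythroid sum (962.3 against 1112 to 11060) were below it. The hepatocyte, macrophage and endothelial sums stayed lowest there, and the T and NK cell sum stayed highest.

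**Figure D2:**
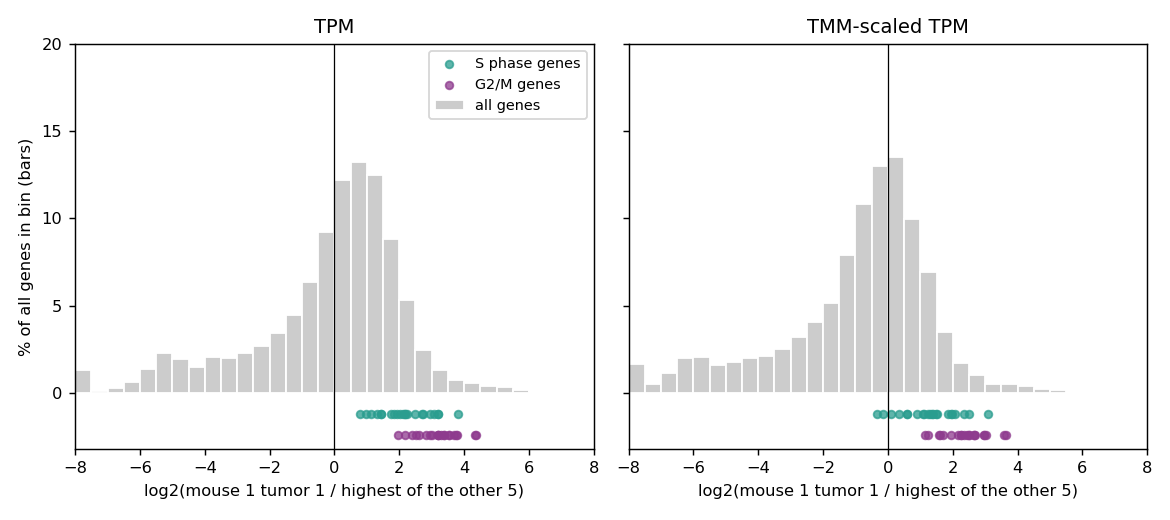
Log2 ratio of tumor 1 of mouse 1 to the highest of the other 5 tumors on TPM (left) and on TMM-scaled TPM (right). Bars give the percent of the 11324 genes averaging 1 TPM or more over the other 5 tumors, with ratios under the axis put in the lowest bin, and dots below them give the S phase genes and the G2/M genes. The median ratio was 4.41 for S phase genes and 9.19 for G2/M genes on TPM, and 2.51 and 5.41 on TMM-scaled TPM.

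The S phase genes begin with the replicative helicase. *Mcm2* to *Mcm7* encode the 6 subunits of the ring that unwinds DNA, and *Cdc45* and *Gins2* encode parts of the active helicase. *Mcm3* had 54.1 TPM in tumor 1 of mouse 1, against 5.47 (tumor 2) and 5.67 TPM (tumor 3) in mouse 1 and, in the order of tumors 1 to 3, 5.40, 4.82 and 5.91 TPM in mouse 2. *Mcm2* had 29.8 TPM, against 6.82 and 7.75 TPM in mouse 1 and 4.65, 5.32 and 4.94 TPM in mouse 2. The other 5 tumors lay within a narrow band for *Mcm3* on summed TPM but between 2.10 and 5.57 TPM with coding transcripts alone, and for *Mcm2* both further tumors of mouse 1 lay above the 3 of mouse 2. *Mcm4* had 20.9 TPM in tumor 1 of mouse 1 against 2.57 to 5.18 TPM in the other 5, *Mcm5* 24.7 against 2.86 to 4.44, *Mcm6* 49.9 against 7.19 to 11.0, and *Mcm7* 48.1 against 5.39 to 13.6 TPM. *Cdc45* was at 12.7 TPM, against 0.79 to 1.97 TPM. *Gins2* was at 19.8 TPM, against 2.72 and 2.98 TPM in mouse 1 and 3.62, 7.32 and 4.02 TPM in mouse 2, so that tumor 2 of mouse 2 was the next highest. Over the 8 helicase genes the ratio to the next-highest tumor ran between 2.71 and 9.14.

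Origin licensing was represented by *Cdc6* and *Cdt1*, whose products load the MCM ring on DNA. *Cdt1* had 28.6 TPM in tumor 1 of mouse 1, against 3.64 to 6.08 TPM in the other 5. *Cdc6* had 6.36 TPM (356 estimated reads), against 0.76 and 0.62 TPM in mouse 1 and 0.34, 0.36 and 0.42 TPM in mouse 2, where 19 to 46 reads lay behind each value. Counting error alone gives the 19 reads of tumor 2 of mouse 2 an exact 95% Poisson interval of 11.4 to 29.7. *Pcna* (chr2:132249286-132253180, GRCm38), the sliding clamp that holds DNA polymerases on the template, was the most abundant S phase gene in every tumor, at 157.1 TPM in tumor 1 of mouse 1, against 40.2 and 39.97 TPM in mouse 1 and 41.6, 44.7 and 57.98 TPM in mouse 2. Its ratio to the next-highest tumor, 2.71, was among the smaller ones and was 1.26 after TMM scaling.

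Nucleotide supply depends on *Rrm1* and *Rrm2*, the subunits of ribonucleotide reductase, on *Tyms*, which makes thymidylate, and on *Tk1*, the thymidine kinase of S phase. *Rrm1* had 35.8 TPM in tumor 1 of mouse 1, against 7.88 and 7.93 TPM in mouse 1 and 4.70, 3.71 and 5.24 TPM in mouse 2. *Rrm2*, the subunit whose level follows the cell cycle, had 32.2 TPM, against 4.55 to 9.58 TPM. Both subunits were thus of like level in the tumor in which they were highest. *Tyms* had 57.1 TPM, against 14.8 to 23.0 TPM, and *Tk1* had 33.0 TPM, against 10.9 and 10.04 TPM in mouse 1 and 9.36, 7.14 and 16.9 TPM in mouse 2. The ratio to the next-highest tumor was 4.52 for *Rrm1* and 3.36 for *Rrm2*, but 2.49 for *Tyms* and 1.95 for *Tk1*, whose next-highest tumor was tumor 3 of mouse 2.

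Cyclin E and CDK2 fire the licensed origins. *Ccne1* had 14.4 TPM in tumor 1 of mouse 1, against 1.06 and 1.57 TPM in mouse 1 and 0.74, 1.17 and 0.56 TPM in mouse 2. *Ccne2* had 19.95 TPM, against 1.36 to 2.57 TPM, and *Cdk2* had 29.3 TPM, against 4.06 to 6.83 TPM. Both cyclins differed more between tumor 1 of mouse 1 and the next-highest tumor (9.13-fold and 7.77-fold) than their kinase did (4.30-fold).

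The last S phase group holds E2F factors and E2F target genes. *E2f1*, an activator of S phase genes, had 10.02 TPM in tumor 1 of mouse 1, against 4.57 and 3.46 TPM in mouse 1 and 2.72, 2.80 and 4.34 TPM in mouse 2. *E2f8*, a repressor of the same family, had 4.96 TPM, against 1.40 and 1.56 TPM in mouse 1 and 2.77, 1.37 and 2.87 TPM in mouse 2. The ratio to the next-highest tumor was 2.19 for *E2f1* and 1.73 for *E2f8*, the smallest of all 43 genes. *Mybl2*, which encodes the B-Myb factor that acts on G2/M promoters, had 4.22 TPM, against 0.30 and 0.20 TPM in mouse 1 and 0.14, 0.07 and 0.06 TPM in mouse 2. The low values rest on 19, 16, 11, 5 and 4 estimated reads, and the exact 95% Poisson interval of the 4 reads in tumor 3 of mouse 2 is 1.09 to 10.2. *Ezh2*, the histone methyltransferase of the Polycomb complex and an E2F target, had 30.8 TPM, against 2.10 to 4.61 TPM.

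Among the G2/M genes, *Cdk1*, the kinase that drives mitotic entry, was the most abundant on summed TPM in tumor 1 of mouse 1, at 123.9 TPM, against 9.62 and 11.5 TPM in mouse 1 and 11.7, 12.8 and 10.6 TPM in mouse 2. With coding transcripts alone it was at 92.0 TPM there, below *Ube2c* at 112.3 TPM and *Hmgb2* at 99.5 TPM. The cyclin partners of *Cdk1* were *Ccna2*, at 39.1 TPM against 1.97 to 3.03 TPM, *Ccnb1*, at 40.3 TPM against 2.06 to 4.98 TPM, and *Ccnb2*, at 43.3 TPM against 3.55 to 6.10 TPM. *Foxm1*, a transcription factor of G2/M genes, had 18.97 TPM, against 1.26 to 1.84 TPM. The 3 cyclins lay within a narrow range in tumor 1 of mouse 1, and *Ccnb1* and *Ccnb2* were lowest in tumor 3 of mouse 2.

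The mitotic kinases comprise *Plk1*, *Aurka* and *Aurkb*, which act on spindle poles and kinetochores, and *Bub1* and *Bub1b*, which hold the spindle checkpoint. *Plk1* had 12.7 TPM in tumor 1 of mouse 1, against 3.04 and 3.23 TPM in mouse 1 and 2.77, 3.23 and 1.29 TPM in mouse 2, the smallest ratio of a G2/M gene (3.93). *Aurka* had 16.7 TPM, against 2.91 to 3.71 TPM, and *Aurkb* had 24.1 TPM, against 1.07 to 2.07 TPM. The 2 Aurora kinases thus stood in opposite order, *Aurkb* above *Aurka* in tumor 1 of mouse 1 and below it in each of the other 5. *Bub1* had 20.9 TPM, against 0.60 to 1.99 TPM, and *Bub1b* had 12.5 TPM, against 0.61 to 1.36 TPM.

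The anaphase-promoting complex marks cyclin B and securin for destruction, with *Cdc20* as its activator and *Ube2c* as its ubiquitin-conjugating enzyme. *Ube2c* had 112.3 TPM in tumor 1 of mouse 1, against 10.5 and 12.3 TPM in mouse 1 and 9.65, 7.71 and 6.64 TPM in mouse 2. *Cdc20* had 25.9 TPM, against 3.14 to 4.89 TPM. The spindle genes were *Kif11*, a motor that separates the poles, *Tpx2*, an activator of Aurora A, and *Kif20a*, a motor of cytokinesis. *Kif11* had 21.9 TPM, against 1.49 and 1.61 TPM in mouse 1 and 1.35, 1.51 and 0.54 TPM in mouse 2, *Tpx2* had 21.6 TPM, against 1.57 to 1.88 TPM, and *Kif20a* had 23.0 TPM, against 1.95 to 3.76 TPM. The 3 spindle genes were of nearly equal level in tumor 1 of mouse 1.

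Centromere genes included *Cenpa*, the histone variant that marks centromeres, at 47.1 TPM in tumor 1 of mouse 1, against 5.71 and 6.36 TPM in mouse 1 and 8.23, 6.87 and 5.501 TPM in mouse 2. *Cenpf*, a kinetochore protein, had 6.92 TPM, against 0.21 to 0.51 TPM. *Birc5*, which encodes survivin of the chromosomal passenger complex, had 58.4 TPM, against 4.44 and 4.52 TPM in mouse 1 and 5.31, 6.44 and 4.98 TPM in mouse 2. For *Birc5* both further tumors of mouse 1 lay below the 3 of mouse 2.

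Chromosome structure genes held the largest ratios on summed TPM. *Top2a* (chr11:98992947-99024199, GRCm38), the topoisomerase that untangles sister chromatids, had 97.4 TPM in tumor 1 of mouse 1, against 4.45 and 4.76 TPM in mouse 1 and 2.73, 3.32 and 2.03 TPM in mouse 2, a ratio of 20.5. *Hmgb2* (chr8:57511843-57515999), a chromatin protein, had 100.8 TPM, against 4.97 and 4.49 TPM in mouse 1 and 4.47, 3.72 and 3.92 TPM in mouse 2, a ratio of 20.3. The 2 genes were thus of like level in tumor 1 of mouse 1 and stood under 5 TPM in each of the other 5. *Mki67* (chr7:135689784-135716450), which encodes the proliferation marker Ki-67, had 19.1 TPM, against 2.47 and 1.505 TPM in mouse 1 and 1.37, 1.07 and 0.68 TPM in mouse 2.

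For 10 members, transcripts annotated as protein coding held under 75% of the TPM. The share was lowest for *Tyms* (15.4% of TPM, 45.3% of reads) and *Cenpa* (34.7% of TPM, 35.8% of reads), whose most abundant transcript is annotated as a target of nonsense-mediated decay. For *Top2a* the coding share was 52.6% of TPM but 89.8% of reads. With coding transcripts alone, the ratio of tumor 1 of mouse 1 to the highest other tumor was 15.2 for *Top2a* and 4.87 for *Mcm3*, against 20.5 and 9.14 with all transcripts, and its median was 4.17 over the S phase genes and 9.06 over the G2/M genes. For *Hmgb2*, 50.2 of the 100.8 TPM in tumor 1 of mouse 1 came from a transcript of 414 bases with 216 reads, and its main transcript had 49.3 TPM against at most 4.97 TPM, a ratio of 9.93. With the transcript of the most reads alone for each gene, an alternative chosen after seeing the data, the ratio had a median of 3.91 over the S phase genes and of 8.89 over the G2/M genes, and *Top2a* (15.2) was the largest, while 21 of 22 S phase genes and all 21 G2/M genes were highest in that tumor. The exception was *E2f8*, whose 2 highest tumors had 2.54 TPM each.

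The 2 lists were compared within each tumor by their mean log2(TPM + 1). The G2/M genes averaged 5.02 and the S phase genes 4.65 in tumor 1 of mouse 1, a difference of 0.38. In tumors 2 and 3 of mouse 1 the G2/M genes averaged 2.07 and 2.05 and the S phase genes 2.57 and 2.52, differences of -0.50 and -0.47. In tumors 1, 2 and 3 of mouse 2 the G2/M genes averaged 2.00, 1.98 and 1.67 and the S phase genes 2.30, 2.30 and 2.42, differences of -0.30, -0.31 and -0.75. The G2/M list was therefore above the S phase list in tumor 1 of mouse 1 and below it in the other 5. On TMM-scaled TPM the difference was 0.36 in tumor 1 of mouse 1 and between -0.79 and -0.30 in the other 5, with the same sign in each tumor.

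**Figure D3:**
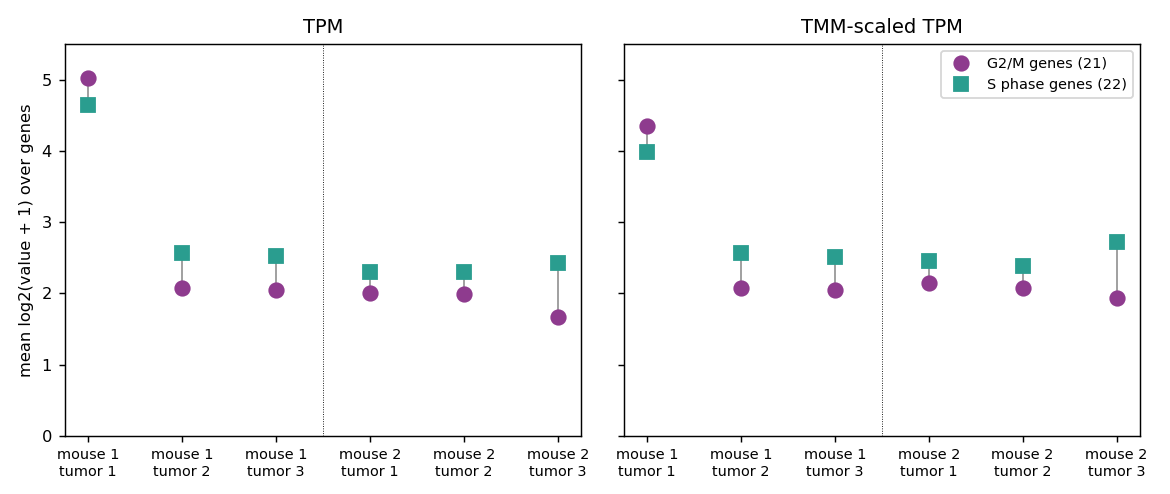
Mean log2(value + 1) over the 21 G2/M genes (circles) and the 22 S phase genes (squares) in each tumor, on TPM (left) and TMM-scaled TPM (right), with a line joining the 2 lists of a tumor. Circles lie above squares in tumor 1 of mouse 1 and below them in the other 5, and the gap is widest in tumor 3 of mouse 2 on both scales.

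Tumor 3 of mouse 2 had the widest gap between the lists. Of the other 5 tumors it held the lowest TPM of 15 of 21 G2/M genes and of 5 of 22 S phase genes, and 55.0% of all genes were lowest there. It held the highest TPM of 5 S phase genes and 1 G2/M gene, against 8.62% of all genes. In that tumor *Kif11* was at 0.54 TPM and *Plk1* at 1.29 TPM, while *Mcm3*, *Pcna*, *Tk1*, *Ccne2* and *E2f8* were at their highest of the 5. With coding transcripts alone *Mcm3* was not, at 4.61 TPM there against 5.57 TPM in tumor 3 of mouse 1. On TMM-scaled TPM tumor 3 of mouse 2 was lowest for 10 G2/M genes and 4 S phase genes, with 36.7% of all genes, and highest for 3 and 10, with 20.4% of all genes. With the transcript of the most reads alone it was lowest for 10 G2/M genes and 7 S phase genes. On TPM and TMM-scaled TPM, 22.7% and 45.5% of the S phase genes were thus at their highest there, against 8.62% and 20.4% of all genes. Of the G2/M genes 71.4% and 47.6% were at their lowest, against 55.0% and 36.7% of all genes, so this tendency is shared in part with all genes. The counts on the most-read transcript have no share of all genes beside them. No test was made of these differences.

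Within the other 5 tumors the members varied about as much as other genes. The highest TPM was 1.23 to 5.24 times the lowest for S phase genes (median 2.05) and 1.20 to 3.64 times for G2/M genes (median 1.85), and the median over all genes was 2.01. The median coefficient of variation was 0.293 for S phase genes, 0.229 for G2/M genes and 0.280 for all genes. Only *Mcm6*, *Mcm7*, *Pcna*, *Tyms* and *Tk1* of the S phase genes and *Cdk1* and *Ube2c* of the G2/M genes passed 10 TPM in any of those tumors. *Cdc6*, *Mybl2* and *Cenpf* were under 1 TPM in all 5.

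The mice were compared by edgeR on the estimated counts of all genes, mouse 1 over mouse 2, with Benjamini-Hochberg adjustment over all genes tested. With 6 tumors none of the 43 members passed an adjusted p of 0.05, and none of the 13268 genes tested did (0.0%), while 1 member and 1449 genes had an unadjusted p under 0.05. The member was *Mybl2*, with a log2 fold change of 2.84 ± 1.15 (SE) and an adjusted p of 0.455 in edgeR. Estimates were positive for 18 of 22 S phase genes (median log2 fold change 0.73) and 21 of 21 G2/M genes (median 1.32), against a median of 0.05 over all genes. DESeq2 called 0 members and 202 genes, and limma-voom called 0 of either, with 708 genes at an unadjusted p under 0.05.

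These positive estimates rested on 1 tumor. Without tumor 1 of mouse 1, edgeR called 0 members and 168 of 13374 genes (1.26%), and 6 members and 2676 genes had an unadjusted p under 0.05. Estimates were positive for 10 of 22 S phase genes (median -0.09) and 3 of 21 G2/M genes (median -0.32). The lowest adjusted p in edgeR was that of *Cenpa*, with a log2 fold change of -0.89 ± 0.25 (SE) and an adjusted p of 0.129, followed by *Birc5* at -0.83 ± 0.25 with 0.147, *Pcna* at -0.82 ± 0.27 with 0.172 and *Cdk1* at -0.65 ± 0.22 with 0.179. *Cenpa* was the only member called by any of the other tools or scalings tried without that tumor, by DESeq2, with a log2 fold change of -0.89 ± 0.30 (SE) and an adjusted p of 0.0331, and DESeq2 then called 1369 genes (10.2%). Over these tools and scalings its adjusted p ran between 0.0331 and 0.342.

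**Figure D4:**
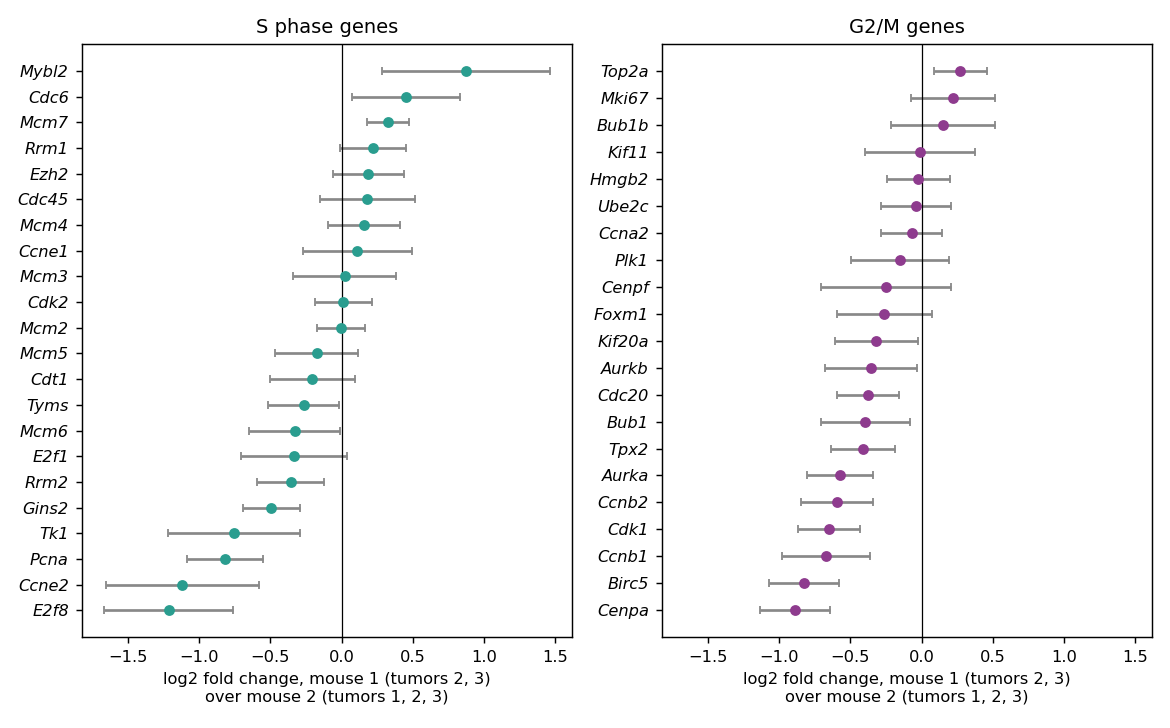
Log2 fold change of mouse 1 (tumors 2 and 3) over mouse 2 (tumors 1, 2 and 3) by edgeR for each S phase gene (left) and G2/M gene (right), without tumor 1 of mouse 1. Points are estimates and bars are 1 SE. No gene passed an adjusted p of 0.05, and 10 of 22 S phase genes and 3 of 21 G2/M genes lie above 0.

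The direction of the smaller estimates depended on the scaling. The mice also differed in the share of counts from mitochondrial genes, at 6.85% to 8.34% in mouse 1 and 12.86% to 18.37% in mouse 2. The part of this difference in the estimates was not tested. With library size alone and without tumor 1 of mouse 1, 24 of 43 members were positive, with a median of 0.02, where TMM gave 13 and -0.25, and the median over all genes was 0.25, against -0.01 under TMM. On TPM, both further tumors of mouse 1 lay above all 3 tumors of mouse 2 for 10 S phase genes (45.5%) and 7 G2/M genes (33.3%), against 56.9% of all genes. They lay below all 3 for *Gins2* and *Pcna* (9.09% of S phase genes) and *Birc5* (4.76% of G2/M genes), against 4.81% of all genes. The member counts include *Cdc6*, *Mybl2* and *Bub1b*, which fail the filter over the other 5 tumors behind the shares of all genes in this paragraph. For *Gins2* this did not hold with coding transcripts alone. Tumor 3 of mouse 1 then had 2.98 TPM, above tumors 1 and 3 of mouse 2 at 2.25 and 2.33 TPM. On TMM-scaled TPM, with all transcripts, both further tumors of mouse 1 lay below all 3 of mouse 2 for *Ccne2*, *Gins2* and *Pcna* (13.6% of S phase genes). The same held for *Aurka*, *Birc5*, *Cdk1* and *Cenpa* (19.05% of G2/M genes), against 10.6% of all genes. The counts above were then 7 (31.8%) and 2 (9.52%), against 39.1% of all genes. *Cdc45*, *Cdc6*, *Mcm2*, *Mcm4*, *Mcm7*, *Mybl2*, *Rrm1*, *Ccna2* and *Top2a* were on that side under both scales. Tumors 2 and 3 of mouse 1 were also the most alike pair within a mouse, with a chi-square per degree of freedom of 7.76 over genes, against 73.7 to 1297 for the other pairs, so that the spread within mouse 1 was estimated from 2 tumors that differed little.

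The other genes of these pathways were read from longer lists. Of 44 further replication genes 42 were highest in tumor 1 of mouse 1, with a median ratio to the highest other tumor of 3.50 and 19 at 4-fold or more, where 58.1% of all genes were highest there and 11.4% reached 4-fold. On TMM-scaled TPM the counts were 36 highest and 8 at 4-fold with a median of 2.08, against 38.5% and 4.49% of all genes. The longer lists were counted without the filter over the other 5 tumors that lies behind these shares, which *Cdc7*, *Gins3* and *Pole2* fail. Of the 12518 genes averaging 1 TPM or more over all 6 tumors, 62.6% were highest there and 19.1% reached 4-fold. On TMM-scaled TPM these shares were 44.6% and 11.4%. The most abundant replication genes were *Rpa1* and *Rpa3*, subunits of the single-strand DNA binding protein, at 178.7 TPM against 19.8 to 39.4 TPM and 131.9 TPM against 13.4 to 29.5 TPM, and *Rfc3*, a clamp loader subunit, at 154.7 TPM against 9.79 to 19.9 TPM. The largest ratio was that of *Cdc7*, the kinase that activates the MCM ring, at 11.2 TPM against 0.06 to 0.24 TPM, and *Gins3* and *Pole2* followed at 7.76 TPM against 0.24 to 0.53 TPM and 7.53 TPM against 0.33 to 0.75 TPM. *Mcm10*, a replication initiation factor, was among the exceptions, at 7.77 TPM against 9.44 to 26.7 TPM.

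Of 50 further mitosis genes, counted without a filter, 49 were highest in tumor 1 of mouse 1, with a median ratio of 7.75 and 41 at 4-fold or more. The shares of all genes were 58.1% and 11.4% under the filter over the other 5 tumors, and 62.6% and 19.1% under the filter over all 6. On TMM-scaled TPM 47 were highest and 29 at 4-fold, with a median of 4.24, against 44.6% and 11.4% of all genes under the filter over all 6. *Stmn1*, which destabilizes microtubules, had 1945 TPM against 30.6 to 73.1 TPM, and *Cks2*, a CDK-binding protein, had 137.8 TPM against 27.95 to 37.8 TPM. *Pimreg* and *Anln*, the cytokinesis scaffold anillin, had 38.3 TPM against 0.12 to 1.09 TPM and 21.9 TPM against 0.77 to 1.60 TPM. *Pimreg* fails the filter over the other 5 tumors, so it was named for its ratio only through its level in tumor 1 of mouse 1. The exception was *Pttg1*, which encodes securin, at 34.4 TPM against 33.5 to 65.5 TPM.

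Upstream of S phase, 23 of 26 measured E2F, pocket protein and G1 regulators, counted without a filter, were highest in tumor 1 of mouse 1, with a median ratio of 3.49 and 12 at 4-fold or more. The shares of all genes were again 58.1% and 11.4% under the filter over the other 5 tumors, and 62.6% and 19.1% under the filter over all 6. On TMM-scaled TPM 21 were highest and 8 at 4-fold, with a median of 2.06, against 44.6% and 11.4% of all genes under the filter over all 6. *Cdk4* had 530.3 TPM against 21.97 to 39.8 TPM and its partner *Ccnd1*, cyclin D1, had 202.8 TPM against 13.8 to 24.3 TPM. The CDK inhibitors *Cdkn1a*, which encodes p21, and *Cdkn2a* were also highest there, at 150.2 TPM against 10.8 to 35.7 TPM and 36.0 TPM against 0.88 to 4.23 TPM, as was the pocket protein gene *Rbl1*, at 23.9 TPM against 1.20 to 2.60 TPM. The exceptions were *Cdk6* at 9.17 TPM against 4.996 to 9.19 TPM, *Cdkn2b* at 1.97 TPM against 0.19 to 3.92 TPM and *Cdkn2c* at 15.4 TPM against 14.3 to 24.9 TPM. None of the tested genes of these 3 lists passed the edgeR test between the mice with 6 tumors, nor did any with DESeq2 or limma-voom. In edgeR 2 of 42 replication genes, 1 of 50 mitosis genes and 5 of 26 regulators had an unadjusted p under 0.05, against 1449 of 13268 genes. Without tumor 1 of mouse 1 edgeR again called 0. Then 9 mitosis genes, 5 replication genes and 6 regulators had an unadjusted p under 0.05, against 2676 of 13374 genes. In that setting DESeq2 called 4 mitosis genes lower in mouse 1, 1 replication gene higher and 2 lower, and 1 regulator higher, against 10.2% of all genes. Limma-voom called 1 replication gene lower, against 3.57% of all genes. With neither tool did a list hold a larger share of calls than all genes.

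The members differ in what stands before their start sites. E2F factors bind S phase promoters, whereas G2/M promoters often pair a cell cycle homology region (CHR), bound by the DREAM and MuvB complexes, with CCAAT boxes, bound by NF-Y. RefSeq windows of GRCm38.p6, from 250 bases before to 50 bases after the start, were at hand for 19 S phase genes and 16 G2/M genes and were read for letters alone on both strands. Segments of 110 bases ending just before the start, and 150 bases for *Cdk2*, are shown for 2 S phase genes with E2F letters and 5 G2/M genes with CHR letters, with every match to the 3 motifs in capitals (TTTGGCGC or TTTCCCGC for E2F, TTTGAA or TTCGAA for CHR, CCAAT for NF-Y, or the reverse complement of these). *Mcm6* lies at chr1:128359706-128359815 (minus strand), *Cdk2* at chr10:128705052-128705201 (minus), *Cdk1* at chr10:69352913-69353022 (minus), *Cdc20* at chr4:118437344-118437453 (minus), *Ube2c* at chr2:164769819-164769928 (plus), *Kif11* at chr19:37376272-37376381 (plus) and *Hmgb2* at chr8:57511733-57511842 (plus).
Mcm6: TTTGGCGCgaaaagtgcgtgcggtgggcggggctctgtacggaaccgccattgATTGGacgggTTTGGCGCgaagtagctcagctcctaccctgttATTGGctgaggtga
Cdk2: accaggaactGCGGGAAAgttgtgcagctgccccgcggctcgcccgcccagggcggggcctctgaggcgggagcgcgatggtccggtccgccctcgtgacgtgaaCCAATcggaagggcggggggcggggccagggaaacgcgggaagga
Cdk1: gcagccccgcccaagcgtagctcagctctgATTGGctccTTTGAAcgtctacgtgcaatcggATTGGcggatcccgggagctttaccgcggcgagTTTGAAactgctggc
Cdc20: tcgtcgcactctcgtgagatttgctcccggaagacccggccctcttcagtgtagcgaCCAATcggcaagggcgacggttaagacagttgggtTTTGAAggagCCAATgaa
Ube2c: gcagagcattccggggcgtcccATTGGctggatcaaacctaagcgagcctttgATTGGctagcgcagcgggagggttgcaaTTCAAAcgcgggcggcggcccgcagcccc
Kif11: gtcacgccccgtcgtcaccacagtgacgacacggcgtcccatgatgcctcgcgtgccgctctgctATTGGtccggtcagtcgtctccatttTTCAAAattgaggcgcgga
Hmgb2: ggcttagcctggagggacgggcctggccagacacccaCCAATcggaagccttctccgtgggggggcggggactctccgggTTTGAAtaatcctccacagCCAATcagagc

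*Mcm6* holds the E2F letters 2 times and *Cdk2* holds them 1 time, and neither holds CHR letters in the segment shown. The 5 G2/M segments each hold CHR letters together with at least 1 CCAAT box and no E2F letters. Over the windows, a gene was counted where any of its windows held the letters. E2F letters were present in 8 of 19 S phase genes (42.1%) and 0 of 16 G2/M genes, against 1.8% of 27025 genes with a window. They were *Cdc6*, *Cdk2*, *Cdt1*, *Ezh2*, *Mcm3*, *Mcm5*, *Mcm6* and *Mcm7*. CHR letters were present in 4 of 19 S phase genes (21.1%) and 14 of 16 G2/M genes (87.5%), against 21.7% of all genes with a window, and of the G2/M genes *Birc5* and *Ccnb1* lacked them. CCAAT was present in 12 S phase genes (63.2%) and 15 G2/M genes (93.8%), against 41.1% of all genes with a window. The same order held in the longer lists, with E2F letters in 9 of 36 replication and 5 of 42 mitosis genes with a window, and CHR letters in 7 of 36 and 28 of 42. A match is a description of letters and not of a bound site.

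**Figure D5:**
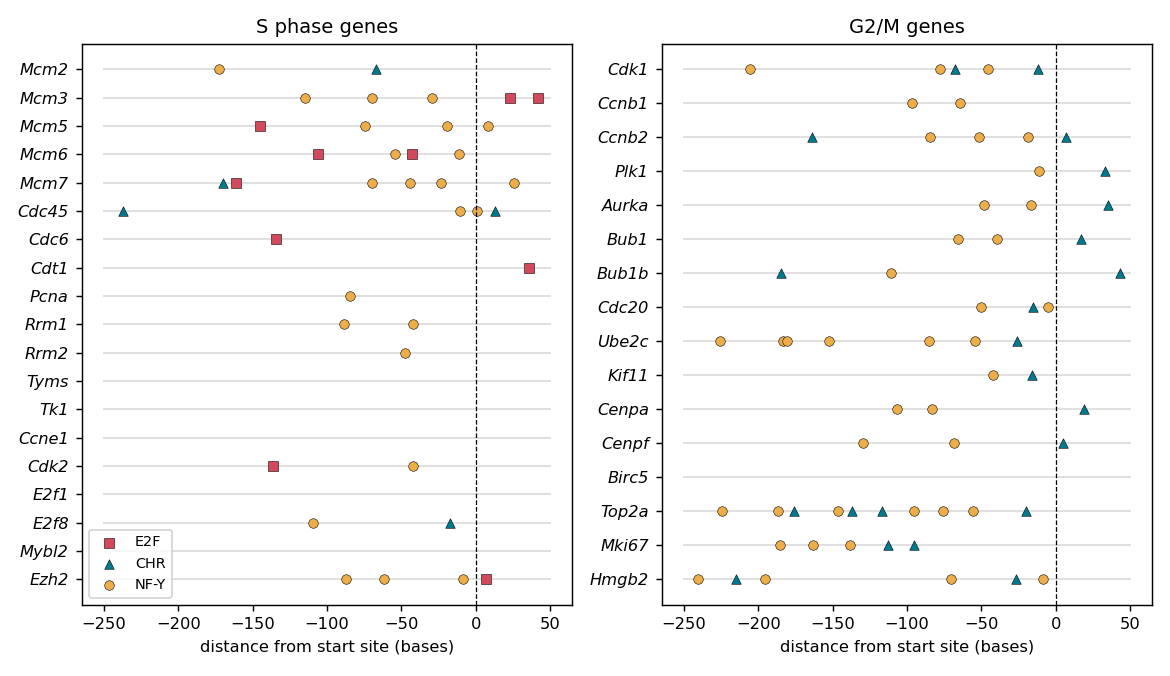
Centres of the E2F (squares), CHR (triangles) and NF-Y (circles) letters relative to the start site, in bases, in the window or windows of each of 19 S phase genes (left) and 16 G2/M genes (right). Squares occur in 8 S phase genes and in no G2/M gene, and triangles in 4 S phase genes and 14 G2/M genes.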

How the data were processed

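Poly A RNA-seq values of 6 liver tumors, 3 from each of 2 CMRtdT mice, were used and none was left out. The authors deposited TPM, scaled for effective transcript length and depth. They also deposited estimated counts, which assign fragments to transcripts, need not be whole and are not normalized. The tables have the layout of Salmon. In the submitters' processing notes BWA, Picard and the build GRCm38 are listed without a role. The release of the transcript index was not found in these notes. A wrong share of fragments between isoforms or near-identical genes changes both values.

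Transcripts were matched to GENCODE vM39 for names and types alone, 114813 of them, with 1733 unmatched (0.373% to 0.68% of counts), and were summed per gene. Positions and promoter windows came from RefSeq tables of GRCm38.p6, which held windows for 35 of the 43 genes. The 43 genes, the further gene and marker lists and the rule for named genes (all members, and of each further list the 3 genes with the highest mean TPM and the 3 with the largest ratio among genes averaging 1 TPM or more) were chosen with earlier results of these data known, and some members also belong to the proliferation signature of the study. Some genes of the further lists are not reported here.

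TPM is described without a test. Means over lists used log2(TPM + 1). TMM-scaled TPM was divided by the normalization factor of edgeR. The mice were compared on gene counts rounded to whole numbers. The two-sided quasi-likelihood test of edgeR 4.0.16 was used after filterByExpr and TMM normalization, with p-values adjusted by Benjamini-Hochberg, and DESeq2 1.42.0 and limma-voom (limma 3.58.1) served as alternatives, with other scalings, filters, a replicate block, coding transcripts alone and each tumor left out. The fits without tumor 1 of mouse 1 that also changed a tool, scaling or transcript set, the fit of coding transcripts with 6 tumors and the most-read transcript alone were chosen after seeing the data. The fit was tested on simulated data. Tumors with the same number did not vary together between the mice (r of 0.03, -0.07 and 0.07), so the numbers were not taken as pairs. Poisson intervals are exact, at 95%, and cover counting error only. Software versions were 3.11.15 for Python, 1.17.1 for scipy, 2.3.3 for pandas, 2.4.6 for numpy, 3.10.9 for matplotlib and 4.3.3 for R.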

Additional observations from a re-analysis of the deposited data

Results flagged for a closer look

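In 39 of the 43 genes, the highest tumor stood so far from the other 5 on log2(TPM + 1) that the gap to the next-highest tumor, divided by the whole range of the 6 values (Dixon's ratio), was over its 95% critical value for 6 samples. Chance gives such a ratio in about 1 in 20 sets of values, but in these tumors 21.6% of the 11324 genes averaging 1 TPM or more over the other 5 tumors stood apart in the same way in tumor 1 of mouse 1, as did 35 of the 39 members under that filter. The ratio is a description, since the tumor was chosen by its values. In each case the tumor was tumor 1 of mouse 1. Of the S phase genes the 18 with such a ratio were *Mcm2* (0.74), *Mcm3* (0.92), *Mcm4* (0.7), *Mcm5* (0.82), *Mcm6* (0.79), *Cdc45* (0.75), *Cdc6* (0.84), *Cdt1* (0.77), *Pcna* (0.73), *Rrm1* (0.69), *Rrm2* (0.64), *Tyms* (0.68), *Ccne1* (0.78), *Ccne2* (0.81), *Cdk2* (0.76), *E2f1* (0.63), *Mybl2* (0.87) and *Ezh2* (0.75). All 21 G2/M genes had one, and they were *Cdk1* (0.89), *Ccna2* (0.88), *Ccnb1* (0.74), *Ccnb2* (0.8), *Foxm1* (0.9), *Plk1* (0.66), *Aurka* (0.88), *Aurkb* (0.84), *Bub1* (0.76), *Bub1b* (0.82), *Cdc20* (0.81), *Ube2c* (0.79), *Kif11* (0.8), *Kif20a* (0.77), *Tpx2* (0.95), *Cenpa* (0.83), *Cenpf* (0.88), *Birc5* (0.87), *Top2a* (0.82), *Mki67* (0.71) and *Hmgb2* (0.92). The mean log2 level had a ratio of 0.88 over the S phase genes and of 0.88 over the G2/M genes. *Mcm7* (0.60), *Gins2* (0.53), *E2f8* (0.47) and *Tk1* (0.45) stayed under the critical value.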

How the results depend on the processing

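No member was called between the mice with 6 tumors by edgeR, DESeq2 or limma-voom or under any scaling or filter tried, nor by edgeR with any tumor left out, and the fit with a replicate block also called 0 members and 0 genes. The count of all genes called was 0 with 6 tumors and 202 by DESeq2, and it ran between 0 and 168 when each tumor was left out in turn, the 168 being without tumor 1 of mouse 1. Without that tumor it was 1369 by DESeq2, 477 by limma-voom, 151 with library size alone, 153 with DESeq2 size factors and 124 with coding transcripts alone, and DESeq2 called 1 member (*Cenpa*), alternatives chosen after seeing the data. The median log2 ratio of the highest to the next-highest tumor over the S phase genes was 2.14 on TPM, 1.33 on TMM-scaled TPM and 2.06 with coding transcripts alone and 1.97 with the most-read transcript alone (chosen after seeing the data), and it ran from 0.23 to 2.19 when a tumor was left out. Over the G2/M genes it was 3.20 on TPM and 2.44 on TMM-scaled TPM, and ran from 0.10 to 3.37. The gap between the 2 highest tumors in mean log2 level was 2.08 for S phase genes, 2.38 with a pseudocount of 0.1 TPM, 1.26 on TMM-scaled TPM and 1.93 with coding transcripts alone and 1.83 with the most-read transcript alone, and ran from 0.048 to 2.12 when a tumor was left out. For G2/M genes it was 2.95, 3.32 with that pseudocount and 2.20 on TMM-scaled TPM, and ran from 0.022 to 2.97. In each of these ranges the low end was without tumor 1 of mouse 1. With TTTAAA counted as CHR letters as well, 8 of 19 S phase genes (42.1%) held them instead of 4, and 16 of 16 G2/M genes instead of 14. The share of all genes with a window was then 31.9%, against 21.7% before. With E2F letters shortened by 1 base, 1 of 16 G2/M genes (*Birc5*, 6.25%) held them instead of 0, and 8 of 19 S phase genes as before. The share of all genes with a window was then 5.55%, against 1.8% before. In 104 checks of the main results under alternatives, counts moved by at most 1.5 times and levels by less than the spread between tumors. The 15 G2/M genes lowest in tumor 3 of mouse 2 were of this kind, at 10 on TMM-scaled TPM. Levels of the 2 lists in single tumors, with their differences, also moved beyond such limits. With a pseudocount of 0.1 TPM 11 moved and 7 did not, and with coding transcripts alone 7 and 11. On TMM-scaled TPM 6 moved and 12 did not, as with members averaging 1 TPM or more. Read counts limit *Mybl2* and *Cdc6* in the low tumors, and with 2 animals no difference between mice can be told from a difference between their tumors.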
